A study of Mus musculus with 12 samples.

Results

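Neutrophil chemoattractant receptors are described here: 9 genes, Cxcr4, Cxcr2, Ccr1, Ltb4r1, Ptafr, C5ar1, C3ar1, Fpr1 and Fpr2, taken by symbol from a table of 24411 gene symbols, in which each was found once. They were followed in mouse leukaemia cells under 4 treatments with 3 RNA-seq libraries each: ruxolitinib at 50 nM together with GSK-LSD1 at 2 nM, GSK-LSD1 alone, ruxolitinib alone, and the solvent DMSO, all for 24 h. Ruxolitinib inhibits the kinases JAK1 and JAK2, which signal below cytokine receptors, and GSK-LSD1 inhibits the histone demethylase LSD1. All groups share their origin: BALB/c bone marrow given mutant CSF3R (the receptor for granulocyte colony-stimulating factor) and mutant CEBPA (a granulocyte transcription factor) by retrovirus, grown in IMDM with serum. The labels do not say whether the libraries of a group came from separate cultures, so p-values measure the spread between libraries, which may be technical. In bulk RNA, fewer cells of a type and less RNA per cell cannot be told apart.

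Chemoattractant receptors span the membrane of white blood cells and couple mainly to the inhibitory G protein, whose beta-gamma subunits turn on PI3-kinase gamma, phospholipase C-beta and Rac, so that a neutrophil crawls up a gradient of its ligand. CXCR4 binds CXCL12 and holds neutrophils and their precursors in the bone marrow, whereas CXCR2 binds chemokines such as CXCL1 and CXCL2 and draws mature neutrophils out. CCR1 binds CC chemokines such as CCL3 and CCL5, LTB4R1 binds leukotriene B4, PTAFR platelet-activating factor, C5AR1 and C3AR1 the complement fragments C5a and C3a, and FPR1 and FPR2 formylated peptides of bacteria and mitochondria. Most of these receptors are known to appear late in the maturation of neutrophils, and granulocyte colony-stimulating factor is known to lower CXCR4 in the marrow.

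Values are normalised read counts: the authors scaled the reads of each gene by one factor per library. Library totals, in multiples of the step between values, ranged from 8260995 to 8528400, so depth hardly differed. On the second principal component, with 11.1% of the variance, replicate 2 of ruxolitinib (19.67) and replicate 3 of both drugs (17.27) stood apart from the other 10 libraries (-9.73 to 4.64), and results that change without this pair are given both ways. Neutrophil identity was checked with 16 marker genes, of which 15 were in the table. The early granule genes Mpo and Prtn3 were high (6565 and 2097 on average in DMSO), and of the genes that come on later Mmp8 (2074), S100a9 (2940), S100a8 (1063), Lcn2 (543.7) and Itgam (317.6) were present in DMSO too, while Camp and Retnlg did not exceed 5.97 in any library. Ctsg averaged 974.8 in DMSO, above Lcn2 and Itgam. The remaining markers in the table were lower, with DMSO means of 137.6 (Elane), 107.7 (Cd177), 51.08 (Ngp), 38.12 (Mmp9) and 4.313 (Ltf). Markers of mast cells and basophils were abundant too, with Cpa3 averaging 10660 in DMSO.

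The 9 receptors lay at very different levels. Divided by exon length, Cxcr4 averaged 792 ± 58.7 normalised counts per kilobase after both drugs and 429 ± 21.1 in DMSO (SD, n = 3 each), and Ccr1 averaged 263 ± 9.63 after both drugs and 266 ± 9.31 in DMSO. Ltb4r1 (77.5 ± 4.88 after both drugs, 46.4 ± 3.87 in DMSO) and Cxcr2 (49.4 ± 2.09 and 27.3 ± 8.17) came next on this scale, then C5ar1 (21.85 ± 4.4 and 12.8 ± 1.89) and Fpr2 (15.55 ± 1.96 and 7.16 ± 3.09). Ptafr (10.8 ± 2.95 and 4.20 ± 1.051) and Fpr1 (5.23 ± 2.97 and 3.77 ± 3.47) followed, and C3ar1 was lowest (1.46 ± 0.127 and 0.539 ± 0.532). The order was the same after both drugs and in DMSO. In DMSO the per-kilobase ranges of neighbours overlapped between Ptafr and Fpr1 and between Fpr1 and C3ar1, and after both drugs between C5ar1 and Fpr2 and between Fpr2 and Ptafr, but not between the other neighbours.

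Fpr1 and C3ar1 were near zero, with a mean under 10 normalised counts over the 12 libraries (5.06 for Fpr1 and 4.81 for C3ar1), and stayed out of the main test. Fpr2 passed that filter at 12.4, with means of 20.2 after both drugs, 11.6 after GSK-LSD1, 8.7 after ruxolitinib and 9.28 in DMSO. Over the GSK-LSD1, ruxolitinib and DMSO libraries its mean was under 10, so its entry into the test rested on the group where it was highest. Cxcr4 at 1063 lay at percentile 88.0 and Ccr1 at 727 at percentile 81.8 of the genes detected in the table. The other 7 lay between percentile 28.4 (C3ar1) and percentile 50.0 (Cxcr2).

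**Figure D1:**
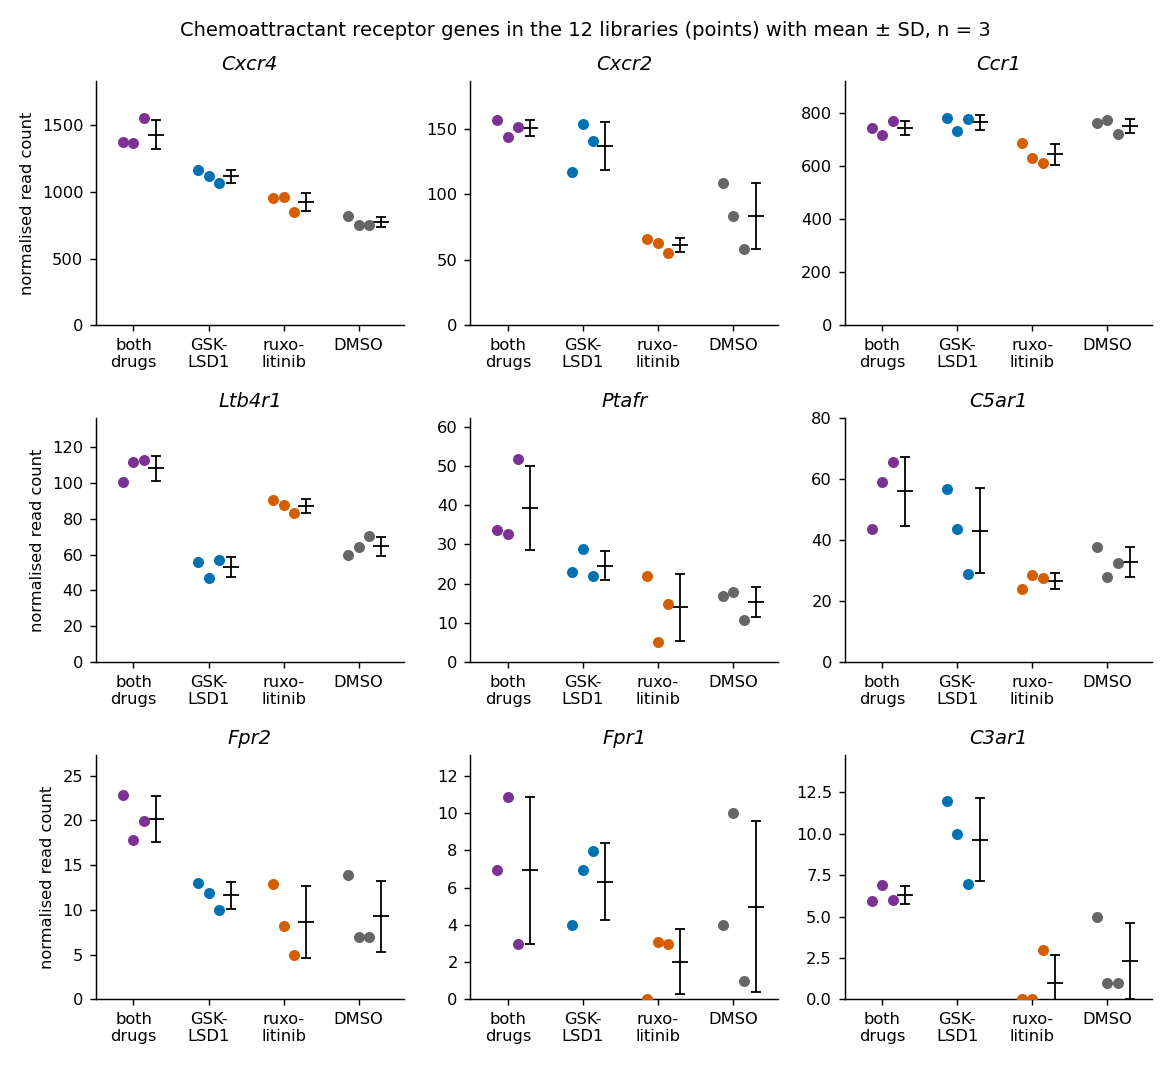
Normalised read count of the 9 receptors (vertical axes, starting at 0) in the 12 libraries, by treatment. Points are libraries, and bars give mean ± SD (n = 3), cut off at 0 for C3ar1. Cxcr4 was highest with both drugs (1368 to 1554), Ltb4r1 was higher in both groups with ruxolitinib, and Fpr1 and C3ar1 did not exceed 11.99.

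The promoters of 4 receptors are shown because their genes moved in different ways: Cxcr4 and Cxcr2 rose after GSK-LSD1, Ltb4r1 rose when ruxolitinib was added to GSK-LSD1, and Ccr1 differed from DMSO by 0.02 ± 0.07 (SE) after GSK-LSD1 and by -0.01 ± 0.07 after both drugs on the log2 scale. The sequences are RefSeq's on GRCm38.p6, 250 bases before to 50 after the start of the gene, read 5′ to 3′ on the gene's strand. They lie at chr1:128592250-128592549, minus strand (Cxcr4), chr1:74153744-74154043, plus strand (Cxcr2), chr14:55765712-55766011, plus strand (Ltb4r1) and chr9:123968643-123968942, minus strand (Ccr1). Capitals mark matches on either strand to the letters searched, AAATCA for GFI factors, TTGCNNAA for C/EBP, TTCNNNGAA for STAT and GAGGAA for PU.1, and a match on the opposite strand reads TGATTT for GFI and TTCCTC for PU.1.
Cxcr4: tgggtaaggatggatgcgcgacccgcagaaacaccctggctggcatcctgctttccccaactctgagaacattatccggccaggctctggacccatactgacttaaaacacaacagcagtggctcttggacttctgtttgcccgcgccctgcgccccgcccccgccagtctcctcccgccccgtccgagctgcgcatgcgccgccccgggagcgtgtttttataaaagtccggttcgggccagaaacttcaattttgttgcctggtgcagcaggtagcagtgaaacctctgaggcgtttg
Cxcr2: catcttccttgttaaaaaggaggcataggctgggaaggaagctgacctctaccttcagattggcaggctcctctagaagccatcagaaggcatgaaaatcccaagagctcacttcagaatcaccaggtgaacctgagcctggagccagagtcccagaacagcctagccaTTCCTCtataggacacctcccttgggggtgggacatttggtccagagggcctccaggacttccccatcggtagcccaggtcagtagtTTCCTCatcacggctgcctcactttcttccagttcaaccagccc
Ltb4r1: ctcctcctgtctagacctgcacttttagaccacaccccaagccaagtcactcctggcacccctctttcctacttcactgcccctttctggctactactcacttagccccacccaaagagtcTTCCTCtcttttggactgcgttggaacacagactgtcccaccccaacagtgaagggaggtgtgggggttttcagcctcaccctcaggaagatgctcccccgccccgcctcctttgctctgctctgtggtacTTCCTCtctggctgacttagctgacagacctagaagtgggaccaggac
Ccr1: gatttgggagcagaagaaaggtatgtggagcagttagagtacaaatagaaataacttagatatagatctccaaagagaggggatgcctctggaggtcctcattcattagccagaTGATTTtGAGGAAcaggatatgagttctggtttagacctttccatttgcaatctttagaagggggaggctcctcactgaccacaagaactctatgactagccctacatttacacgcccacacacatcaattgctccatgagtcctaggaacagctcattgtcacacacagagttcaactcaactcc

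The Cxcr4 window held none of the 4 motifs and was the richest in G and C of all 9 receptors, at 59.3%. Cxcr2 held GAGGAA letters at positions -81 and 7 from the start, and Ltb4r1 at -129 and 3, all on the opposite strand. Ccr1 held the GFI letters at -136 on the opposite strand and GAGGAA at -129, without overlap. All 9 receptors matched a promoter in the RefSeq table, and GAGGAA was found in 5 of 9 (Cxcr2, Ltb4r1, Ccr1, Fpr2 and Ptafr), against 28.3% of 32851 promoters of 300 bases. The GFI letters were in 2 of 9 (Ccr1 and Fpr1; 14% of all promoters), the STAT letters in 1 of 9 (Fpr2; 8.3%) and the C/EBP letters in 0 of 9 (10.8%). These are matches of letters and say nothing of binding.

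Cxcr4 (chromosome 1, 128588199 to 128592293, minus strand) was the most abundant of the 9 receptors. Its normalised counts were 1373, 1368 and 1554 after both drugs, 1167, 1122 and 1066 after GSK-LSD1, 959, 966 and 851 after ruxolitinib, and 819, 751 and 756 in DMSO. The libraries of the 4 groups did not overlap, and each drug group lay above DMSO. In a linear model over all 11484 genes with a mean of at least 10 (limma on log2(value + 1), Benjamini-Hochberg adjustment), Cxcr4 was 0.88 ± 0.07 (SE) higher on the log2 scale after both drugs than in DMSO (adjusted p = 2.39e-09), and 0.53 ± 0.07 higher after GSK-LSD1 than in DMSO (adjusted p = 6.59e-06). After ruxolitinib alone the value was 0.25 ± 0.07 against DMSO and did not pass (adjusted p = 0.0669). That comparison passed without ruxolitinib replicate 2 and replicate 3 of both drugs (0.22, adjusted p = 0.0407), without replicate 3 of both drugs alone (0.25, adjusted p = 0.0195), without ruxolitinib replicate 3 (0.31, adjusted p = 0.0301) and after a correction for transcript GC content (0.29, adjusted p = 0.03).

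Each drug also raised Cxcr4 on top of the other. Both drugs exceeded ruxolitinib alone by 0.63 ± 0.07 (adjusted p = 5.46e-07) and GSK-LSD1 alone by 0.35 ± 0.07 (limma, adjusted p = 0.00686). The second of these calls was lost without GSK-LSD1 replicate 3 (0.32, adjusted p = 0.0649). The interaction, which compares both drugs with the sum of the single effects, was 0.10 ± 0.10, a 1.07-fold departure with a 95% interval of 0.931 to 1.24. The genes whose log2 values were most like Cxcr4 over the 12 libraries were Tyrobp (Pearson r = 0.989), Nfam1 (0.988) and the complement gene C3 (0.984), a description of libraries that share their treatments.

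Cxcr2 (chromosome 1, 74153989 to 74161246, plus strand) rose with GSK-LSD1, with or without ruxolitinib. It had 157, 144 and 151 normalised counts after both drugs, 117, 153 and 141 after GSK-LSD1, 65.7, 62.7 and 55.3 after ruxolitinib, and 108, 83.0 and 58.4 in DMSO. The libraries with GSK-LSD1 all lay above those without it, and the DMSO libraries were the most scattered, with an SD of 24.9 against 9.12 from counting alone. Cxcr2 was 0.89 ± 0.17 higher after both drugs (adjusted p = 0.000206) and 0.75 ± 0.17 higher after GSK-LSD1 (adjusted p = 0.0017) than in DMSO, and 1.29 ± 0.17 higher after both drugs than after ruxolitinib (limma, adjusted p = 4.85e-06). Ruxolitinib alone gave -0.40 ± 0.17 against DMSO (adjusted p = 0.222) and ruxolitinib on top of GSK-LSD1 gave 0.14 ± 0.17 (adjusted p = 0.781; fold 1.11, 95% interval 0.869 to 1.41). The libraries of ruxolitinib and DMSO overlapped. Of the 50-base stretches of Cxcr2 transcripts, 6.68% also occur in transcripts of other genes. Most like it over the 12 libraries were Ifi202b (r = 0.965), Lrch1 (0.952) and Kbtbd11 (0.950).

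Ccr1 (chromosome 9, 123962124 to 123968692, minus strand) was abundant and changed little. Its normalised counts were 744, 718 and 773 after both drugs, 783, 735 and 779 after GSK-LSD1, 688, 632 and 614 after ruxolitinib, and 762, 773 and 723 in DMSO. The ruxolitinib libraries lay below all others, and the other 3 groups overlapped. Against DMSO the log2 change was -0.01 ± 0.07 after both drugs (fold 0.99, 95% interval 0.901 to 1.09) and 0.02 ± 0.07 after GSK-LSD1 (fold 1.02, 95% interval 0.926 to 1.12). Ruxolitinib alone gave -0.22 ± 0.07 against DMSO, which did not pass (adjusted p = 0.0794) but did without replicate 3 of both drugs (-0.22, adjusted p = 0.0386).

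Both drugs exceeded ruxolitinib alone by 0.21 ± 0.07 for Ccr1 (limma, adjusted p = 0.0184). This call was lost without ruxolitinib replicate 3 (0.17, adjusted p = 0.0715), without ruxolitinib replicate 2 and replicate 3 of both drugs (0.17, adjusted p = 0.0619) and with only the compared groups in the model (0.21, adjusted p = 0.0774). An F-test over the 4 treatments gave an adjusted p of 0.0117 for Ccr1, and an adjusted p of 0.122 after the GC correction. The genes most like Ccr1 were Degs1 (r = 0.906), Rgcc (0.900) and Oas3 (0.892).

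The lipid receptor gene Ltb4r1 (chromosome 14, 55765962 to 55768494, plus strand) was highest in the groups with ruxolitinib. It had 100, 111.5 and 112 normalised counts after both drugs, 55.95, 46.8 and 56.8 after GSK-LSD1, 90.5, 87.3 and 83.0 after ruxolitinib, and 59.6, 64.0 and 70.3 in DMSO. The 4 groups did not overlap, and GSK-LSD1 alone was the lowest. Both drugs exceeded GSK-LSD1 alone by 1.01 ± 0.14 on the log2 scale (limma, adjusted p = 0.000138), a 2.02-fold difference, and exceeded DMSO by 0.73 ± 0.14 (adjusted p = 0.000177). With any 1 library left out, these log2 values ranged from 0.92 to 1.06 and from 0.68 to 0.79, past the test each time.

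The single drugs moved Ltb4r1 less, and no such comparison passed. Ruxolitinib gave 0.42 ± 0.14 against DMSO (adjusted p = 0.108; unadjusted p = 0.00499), and GSK-LSD1 gave -0.28 ± 0.14 against DMSO (limma, adjusted p = 0.124). The value for GSK-LSD1 passed after the GC correction (-0.39, adjusted p = 0.0237) and after quantile normalisation (-0.48, adjusted p = 0.0102). The interaction was 0.59 ± 0.19 (unadjusted p = 0.00587, adjusted p = 0.864), so a difference between the effects of ruxolitinib with and without GSK-LSD1 was not shown. Most like Ltb4r1 over the 12 libraries were Cybb (r = 0.946), Aldh2 (0.933) and Hvcn1 (0.918).

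Ptafr (chromosome 4, 132564067 to 132582683, plus strand), the receptor for platelet-activating factor, was low and rose after both drugs. It had 33.7, 32.6 and 51.7 normalised counts after both drugs, 22.98, 28.9 and 21.9 after GSK-LSD1, 21.9, 5.14 and 14.8 after ruxolitinib, and 16.9, 18.0 and 10.9 in DMSO. The libraries with both drugs lay above all others, and ruxolitinib replicate 2 was the lowest of the 12. Ptafr was 1.31 ± 0.35 higher after both drugs than in DMSO (adjusted p = 0.00529) and 1.60 ± 0.35 higher than after ruxolitinib (limma, adjusted p = 0.00155). Without ruxolitinib replicate 2 and replicate 3 of both drugs these values were 1.10 (adjusted p = 0.00236) and 0.84 (adjusted p = 0.0404). GSK-LSD1 alone gave 0.67 ± 0.35 against DMSO (adjusted p = 0.156), which passed without ruxolitinib replicate 2 (0.67, adjusted p = 0.048), without the same pair of libraries (0.67, adjusted p = 0.0356) and with only the compared groups in the model (0.67, adjusted p = 0.0423). Most like Ptafr were Ncs1 (r = 0.941), Rnase6 (0.926) and Vezt (0.925).

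Of the complement receptors, C5ar1 (chromosome 7, 16246743 to 16259540, minus strand) was low and C3ar1 near zero. C5ar1 had 43.6, 59.2 and 65.6 normalised counts after both drugs, 56.95, 43.8 and 28.9 after GSK-LSD1, 23.9, 28.8 and 27.7 after ruxolitinib, and 37.7, 28.0 and 32.7 in DMSO. The libraries with both drugs lay above those of ruxolitinib and DMSO, and the GSK-LSD1 libraries overlapped with both drugs and with DMSO but lay just above ruxolitinib. C5ar1 was 0.75 ± 0.23 higher after both drugs than in DMSO (adjusted p = 0.0113) and 1.03 ± 0.23 higher than after ruxolitinib (limma, adjusted p = 0.00148). The first of these was lost without DMSO replicate 2 (0.64, adjusted p = 0.054) and after quantile normalisation (0.49, adjusted p = 0.0955). GSK-LSD1 alone gave 0.35 ± 0.23 (adjusted p = 0.258) and ruxolitinib alone -0.28 ± 0.23 (adjusted p = 0.553) against DMSO. Most like C5ar1 were Agpat3 (r = 0.910), Bri3 (0.906) and Nudt16 (0.898).

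C3ar1 (chromosome 6, 122847138 to 122856161, minus strand) had 5.95, 6.91 and 5.97 normalised counts after both drugs, 11.99, 9.95 and 6.98 after GSK-LSD1, 2.965 in ruxolitinib replicate 3, and 4.965, 1 and 0.99 in DMSO. The other 2 ruxolitinib libraries were listed at 0. All libraries with GSK-LSD1 lay above all libraries without it, at levels of a few reads. In a model with no filter on low values, C3ar1 was 1.86 ± 0.53 higher after GSK-LSD1 than in DMSO (limma, adjusted p = 0.0185), and 2.20 ± 0.53 higher after both drugs than after ruxolitinib (adjusted p = 0.00652). Both drugs against DMSO gave 1.34 ± 0.53, which did not pass (limma, adjusted p = 0.0711). These values depend on the 1 added before taking logs.

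The formyl peptide receptors lie side by side on chromosome 17 and were both scarce. Fpr2 (17887824 to 17893952, plus strand) had 22.8, 17.8 and 19.9 normalised counts after both drugs, 12.99, 11.9 and 9.97 after GSK-LSD1, 12.9, 8.22 and 4.94 after ruxolitinib, and 13.9, 7.002 and 6.93 in DMSO. The libraries with both drugs lay above all others, which overlapped among themselves. Fpr2 was 1.10 ± 0.35 higher after both drugs than in DMSO (adjusted p = 0.0146) and 1.20 ± 0.35 higher than after ruxolitinib (limma, adjusted p = 0.0115). With no filter on low values, these comparisons had adjusted p = 0.0317 and, against ruxolitinib, adjusted p = 0.0261 (limma). The F-test for Fpr2 gave an adjusted p of 0.0267, and 0.0651 without ruxolitinib replicate 2 and replicate 3 of both drugs. Without replicate 1, 2 or 3 of both drugs alone, the F-test gave an adjusted p of 0.109, 0.0531 and 0.0615. Fpr2 also failed the F-test with no filter on low values (adjusted p = 0.06) and with quantile normalisation (adjusted p = 0.129). Its call against DMSO was lost without replicate 1 of both drugs (1.01, adjusted p = 0.0546), without DMSO replicate 2 (0.95, adjusted p = 0.0608) or 3 (0.95, adjusted p = 0.0634), and after quantile normalisation (0.72, adjusted p = 0.0936). Its call against ruxolitinib was lost without ruxolitinib replicate 3 (0.89, adjusted p = 0.0663) and after quantile normalisation (0.86, adjusted p = 0.0557). Of its 50-base stretches, 31.5% also occur in transcripts of Gm5966, Fpr3 or Fpr1, so its count is uncertain; Fpr3, whose annotated locus overlaps it, was listed at 0 in all 12 libraries. Most like Fpr2 were Plxdc1 (r = 0.928), Chil1 (0.925) and Asprv1 (0.924).

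Fpr1 (17876471 to 17883940, minus strand) had 6.94, 10.85 and 2.98 normalised counts after both drugs, 3.996, 6.97 and 7.98 after GSK-LSD1, 3.08 and 2.965 in ruxolitinib replicates 2 and 3, and 3.97, 10 and 0.99 in DMSO. Ruxolitinib replicate 1 was listed at 0, and all groups overlapped. With no filter on low values, no comparison of Fpr1 passed the test, and an F-test over the 4 treatments gave an adjusted p of 0.205. Both drugs against DMSO gave a fold of 1.51 with a 95% interval of 0.605 to 3.77.

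**Figure D2:**
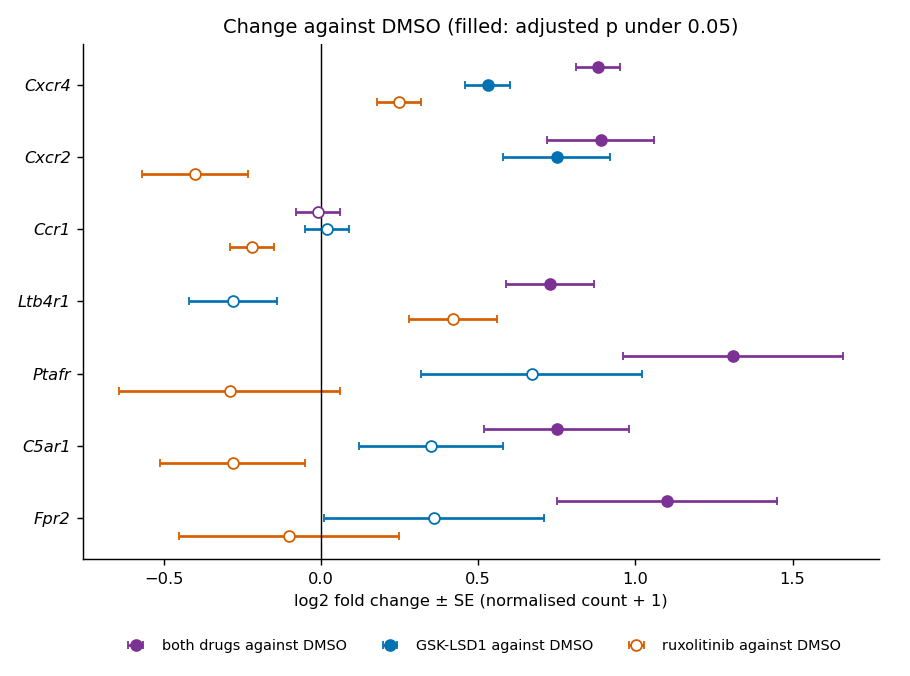
Log2 fold change ± SE against DMSO (horizontal axis) of the 7 receptors tested, for both drugs, GSK-LSD1 and ruxolitinib. Filled points have an adjusted p under 0.05. Both drugs raised 6 of them, GSK-LSD1 raised Cxcr4 and Cxcr2, and no filled point belongs to ruxolitinib. Fpr2 is among the 6, though it entered the test through its level after both drugs.

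Set side by side, both drugs raised 6 of the 7 receptors tested against DMSO, where 42.3% of all 11484 genes tested were called, 20.5% upwards. The 6 were Cxcr4, Cxcr2, Ltb4r1, Ptafr, C5ar1 and Fpr2. Fpr2 entered the test only through its level after both drugs, so 5 were raised without such help. The libraries of both drugs and DMSO did not overlap for these 6 among the 7 tested, nor for C3ar1, and did not overlap for 51.6% of all genes tested. GSK-LSD1 alone raised 2, Cxcr4 and Cxcr2, where 32.5% of all genes were called and 17% upwards; the libraries of 4 of the 7 tested (these and Ltb4r1 and Ptafr), and those of C3ar1, did not overlap, beside 50.9% of all genes tested. Ruxolitinib alone raised 0 and lowered 0 (limma), where 1.63% of all genes were called; at an unadjusted p under 0.05 the count was 4 of the 7 tested, Cxcr4 and Ltb4r1 upwards and Cxcr2 and Ccr1 downwards, and 2012 of all genes. Ruxolitinib and DMSO libraries did not overlap for Cxcr4, Ltb4r1 and Ccr1, beside 23.7% of all genes tested. These comparisons share the DMSO libraries. The F-test over the 4 treatments called the 7 receptors tested, where 42.8% of all genes tested were called. It called 6 without ruxolitinib replicate 2 and replicate 3 of both drugs. Fpr2 is among the 7, having entered the test through its level after both drugs. With no filter on low values, the F-test lost Fpr2 (adjusted p = 0.06) and called C3ar1 (adjusted p = 0.00243). Without ruxolitinib replicate 2 and replicate 3 of both drugs, the counts were 6 for both drugs, 3 for GSK-LSD1 and 1 for ruxolitinib.

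The effect of each drug with and without the other was then compared, between pairs of groups that share no library. GSK-LSD1 raised 6 receptors in cells with ruxolitinib (Cxcr4, Cxcr2, Ccr1, Ptafr, C5ar1 and Fpr2; 31.6% of all genes were called, 16% upwards), against the 2 in cells without it; the 7 tested and C3ar1 did not overlap between the groups with both drugs and with ruxolitinib, beside 38.5% of all genes tested. Fpr2 is among the 6, though it entered the test through its level after both drugs. With no filter on low values, where Fpr2 passed too, C3ar1 made the count 7. Ruxolitinib raised 2 receptors in cells with GSK-LSD1 (Cxcr4 and Ltb4r1; 1.4% of all genes were called, 1.05% upwards), against 0 in cells without it; 4 of the 7 tested did not overlap (also Ptafr and Fpr2), beside 18.1% of all genes tested, and neither did C3ar1, which was lower after both drugs than after GSK-LSD1. Without ruxolitinib replicate 2 and replicate 3 of both drugs the counts were 5 for GSK-LSD1 in cells with ruxolitinib and 2 for ruxolitinib in cells with GSK-LSD1. The test of that difference itself, the interaction, called 0 of the 7 receptors tested, 3 at an unadjusted p under 0.05 (Ltb4r1, Cxcr2 and C5ar1), and 1 of all 11484 genes (0.00871%; 534 at an unadjusted p under 0.05). That gene was Mmp8, neutrophil collagenase, at 0.67 ± 0.10 (limma, adjusted p = 0.0236), named after its value was seen. A difference between the effects with and without the other drug was therefore not shown for any receptor.

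The interaction values of the 7 receptors were all above 0, but they share the libraries of all 4 groups, those of both drugs included. For Ptafr it was 0.92 ± 0.50 (95% interval of the fold 0.919 to 3.90), for Fpr2 0.85 ± 0.49, for C5ar1 0.68 ± 0.32, for Cxcr2 0.54 ± 0.24 and for Ccr1 0.18 ± 0.09. For Ptafr it was 0.17 without ruxolitinib replicate 2 and replicate 3 of both drugs.

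**Figure D3:**
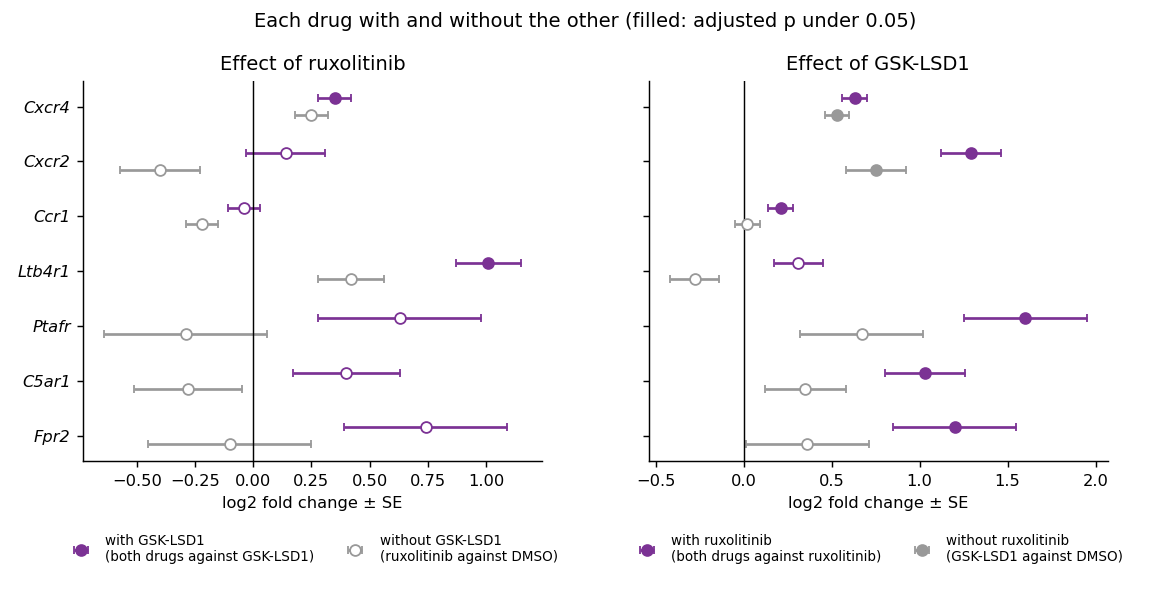
Log2 fold change ± SE of 7 receptors for ruxolitinib (left) and GSK-LSD1 (right), in cells with the other drug (purple) and without it (grey). Filled points have an adjusted p under 0.05. Ltb4r1 had the largest ruxolitinib effect in cells with GSK-LSD1 (1.01), and Ptafr the largest GSK-LSD1 effect in cells with ruxolitinib (1.60), but not without ruxolitinib replicate 2 and replicate 3 of both drugs, where Ptafr was at 0.84 and Cxcr2 at 1.30.

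Marker genes of myeloid cells also differed between the treatments. The summed normalised count of the 15 neutrophil markers in the table ranged from 33110 to 35750 after both drugs, 20460 to 22260 after GSK-LSD1, 19020 to 25740 after ruxolitinib and 16180 to 17890 in DMSO. Of the 13 neutrophil markers tested, 10 rose after both drugs against DMSO, among them Mmp8, S100a8, S100a9 and Itgam. In that comparison 20.5% of all genes tested rose. After GSK-LSD1 5 markers rose and 3 fell (Elane, Prtn3 and Ctsg), beside 17.0% and 15.5% of all genes tested. After ruxolitinib, where 0 receptors were called, 6 rose (Ngp, Cd177, Mpo, Elane, Prtn3 and Ctsg), beside 1.0% of all genes tested. For 13 monocyte and macrophage markers the sum ranged from 9828 to 10060 after both drugs, 9712 to 10240 after GSK-LSD1, 5787 to 7163 after ruxolitinib and 6732 to 7895 in DMSO, and 8 of 10 tested rose after both drugs. C1qa and Mrc1 of this list were near zero. The 8 mast cell and basophil markers summed to 27050 to 29500 after both drugs, 27890 to 29830 after GSK-LSD1, 27250 to 29550 after ruxolitinib and 23570 to 26180 in DMSO, and 6 of 8 rose after both drugs.

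Other lineages were scarce in the table. Of 10 lymphocyte markers 8 were near zero, with Cd4, Ms4a1 and Ncr1 at 0 in all libraries, and the sum ranged from 236 to 258 after both drugs, 222 to 268 after GSK-LSD1, 204.5 to 233 after ruxolitinib and 174 to 204.6 in DMSO. Of 9 dendritic cell markers 7 were near zero (sums of 98.45 to 117 after both drugs, 105.5 to 129.9 after GSK-LSD1, 83.6 to 95.9 after ruxolitinib and 72.02 to 82.4 in DMSO), with H2-Aa at 0. Of 8 eosinophil markers 7 were near zero (sums of 69.05 to 70.6 after both drugs, 43.8 to 59.95 after GSK-LSD1, 43.5 to 64.7 after ruxolitinib and 42.7 to 47.01 in DMSO), with Ear1 and Ear6 at 0. Of 10 erythroid and megakaryocyte markers 4 were near zero, with Hba-a1 and Hbb-bs at 0 (sums of 2071 to 2368 after both drugs, 1961 to 2169 after GSK-LSD1, 2313 to 2639 after ruxolitinib and 2184 to 2334 in DMSO). The part of these cell types and stages in the receptor values was not tested.

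Among 31 other chemoattractant receptors, 30 were in the table and 16 were tested. Against DMSO, 6 rose and 2 fell after both drugs, 4 rose and 1 fell after GSK-LSD1, and 1 rose after ruxolitinib. Among all genes tested, 20.5% rose and 21.8% fell after both drugs, 17.0% and 15.5% after GSK-LSD1, and 1.0% and 0.627% after ruxolitinib. The median log2 change was 0.33 after both drugs, 0.17 after GSK-LSD1 and 0.07 after ruxolitinib. Over all genes tested it was -0.01 (both drugs), -0.005 (GSK-LSD1) and -0.001 (ruxolitinib). Ccr7, a receptor that guides dendritic cells and lymphocytes to lymph nodes, averaged 58.5 ± 8.10 after both drugs, 78.8 ± 8.84 after GSK-LSD1, 27.8 ± 3.99 after ruxolitinib and 31.8 ± 1.16 in DMSO (both drugs against DMSO 0.85 ± 0.17, adjusted p = 0.000485). The monocyte receptor Ccr2 averaged 292 ± 32.4 after both drugs, 320.5 ± 19.96 after GSK-LSD1, 191 ± 39.1 after ruxolitinib and 215 ± 5.23 in DMSO, a rise of 0.57 ± 0.12 after GSK-LSD1 (limma, adjusted p = 0.000827). Ackr3, an atypical receptor that takes up CXCL12 and shares this ligand with CXCR4, rose by 1.72 ± 0.45 after both drugs against DMSO (adjusted p = 0.00389), from low counts (21.15 ± 7.48 against 5.98 ± 3.49). Cxcr1, a close relative of Cxcr2, was among those that fell after both drugs, with a mean of 107 after both drugs and 133 in DMSO.

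Ligands and the enzymes that make or remove them also changed. Of 26 genes 17 were tested. Against DMSO, 7 rose and 2 fell after both drugs, 8 rose and 3 fell after GSK-LSD1, and 2 rose and 1 fell after ruxolitinib. Among all genes tested, 20.5% rose and 21.8% fell after both drugs, 17.0% and 15.5% after GSK-LSD1, and 1.0% and 0.627% after ruxolitinib. Median log2 changes of the 17 were 0.16 after both drugs, 0.27 after GSK-LSD1 and 0.13 after ruxolitinib. Anxa1, the annexin that FPR2 binds, averaged 2599 ± 184 after both drugs, 1576 ± 74.3 after GSK-LSD1, 1467 ± 143 after ruxolitinib and 1157 ± 130 in DMSO (both drugs against DMSO 1.17 ± 0.08, adjusted p = 2.6e-10). C3, the source of C3a, rose by 1.28 ± 0.09 after both drugs against DMSO (435 ± 13.5 against 179 ± 10.8, adjusted p = 7.91e-10). Alox5ap, the protein that hands arachidonic acid to 5-lipoxygenase for leukotriene synthesis, rose by 0.79 ± 0.07 (limma, adjusted p = 7.5e-09), while 5-lipoxygenase itself (Alox5) fell, with means of 1600 after both drugs and 1918 in DMSO. Pla2g7, which breaks down platelet-activating factor, averaged 333 ± 15.1 after both drugs and 141.5 ± 36.1 in DMSO (1.26 ± 0.13, adjusted p = 1.14e-07). Cxcl12, the ligand of CXCR4, was listed at 0 in all 12 libraries, and the CXCR2 ligands Cxcl1, Cxcl2 and Cxcl5 were near zero, whereas its ligands Cxcl3 and Ppbp averaged 20.35 and 18.42 over the 12 libraries.

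Of the signalling genes below the receptors, those that passed the test were all higher. Of 23 genes 22 were tested. Against DMSO, 14 rose and 0 fell after both drugs (median 0.22), and 9 rose and 0 fell after GSK-LSD1 (median 0.14). After ruxolitinib 1 rose (median 0.05). Among all genes tested, 20.5% rose and 21.8% fell after both drugs, 17.0% and 15.5% after GSK-LSD1, and 1.0% and 0.627% after ruxolitinib. Gng2, a gamma subunit of the G protein, averaged 334 ± 6.69 after both drugs, 314 ± 8.14 after GSK-LSD1, 158 ± 10.7 after ruxolitinib and 164 ± 5.002 in DMSO (both drugs against DMSO 1.02 ± 0.09, adjusted p = 7.13e-09). Its libraries split by GSK-LSD1, as those of Cxcr2 did. Prex1, a Rac activator that beta-gamma subunits switch on, rose by 0.55 ± 0.06 after both drugs against DMSO (limma, adjusted p = 2.73e-07). Elmo1, a partner of the Rac activator DOCK2, rose by 0.35 ± 0.06 (adjusted p = 4.16e-05), and Fgr, a Src-family kinase, by 0.96 ± 0.13 (limma, adjusted p = 6.91e-06).

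Among genes that switch receptors off, 8 of 13 tested rose after both drugs. Of 17 symbols 14 were in the table and 13 were tested. Against DMSO, 0 fell after both drugs (median 0.30), and 4 rose and 0 fell after GSK-LSD1 (median 0.19). After ruxolitinib 0 were called (median 0.06). Among all genes tested, 20.5% rose and 21.8% fell after both drugs, 17.0% and 15.5% after GSK-LSD1, and 1.0% and 0.627% after ruxolitinib. Adrbk2, a kinase (GRK3) that marks active receptors for arrestin, averaged 1172 ± 79.1 after both drugs, 1084 ± 60.4 after GSK-LSD1, 580 ± 33.1 after ruxolitinib and 536 ± 71.7 in DMSO (both drugs against DMSO 1.13 ± 0.08, adjusted p = 8.31e-10). The arrestin gene Arrb2 rose by 0.51 ± 0.07 (adjusted p = 9.97e-06). Of the regulators of G-protein signalling, Rgs1 rose by 0.47 ± 0.12 (adjusted p = 0.00413) and Rgs19 by 0.30 ± 0.06 (limma, adjusted p = 0.000433).

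Of 15 transcription factors of granulocytes 14 were tested. Against DMSO, 8 rose and 1 fell after both drugs (median 0.32), and 6 rose and 1 fell after GSK-LSD1 (median 0.21). After ruxolitinib 1 rose and 1 fell (median 0.07). Among all genes tested, 20.5% rose and 21.8% fell after both drugs, 17.0% and 15.5% after GSK-LSD1, and 1.0% and 0.627% after ruxolitinib. Cebpe, a factor of late granulocyte maturation, averaged 316 ± 26.2 after both drugs, 182 ± 16.97 after GSK-LSD1, 194 ± 28.5 after ruxolitinib and 146 ± 15 in DMSO. Both drugs exceeded GSK-LSD1 alone by 0.79 ± 0.11 for Cebpe (limma, adjusted p = 0.000322). Of the 14 only this factor passed in that comparison, where 1.4% of all genes tested were called. Of the repressor genes, Gfi1b changed by 2.63 ± 0.08 and Gfi1 by 2.13 ± 0.12 on the log2 scale after both drugs against DMSO, and the early response gene Egr1 by -1.55 ± 0.10 (limma, adjusted p = 1.04e-15 for Gfi1b, 1.04e-11 for Gfi1 and 2.24e-10 for Egr1).

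**Figure D4:**
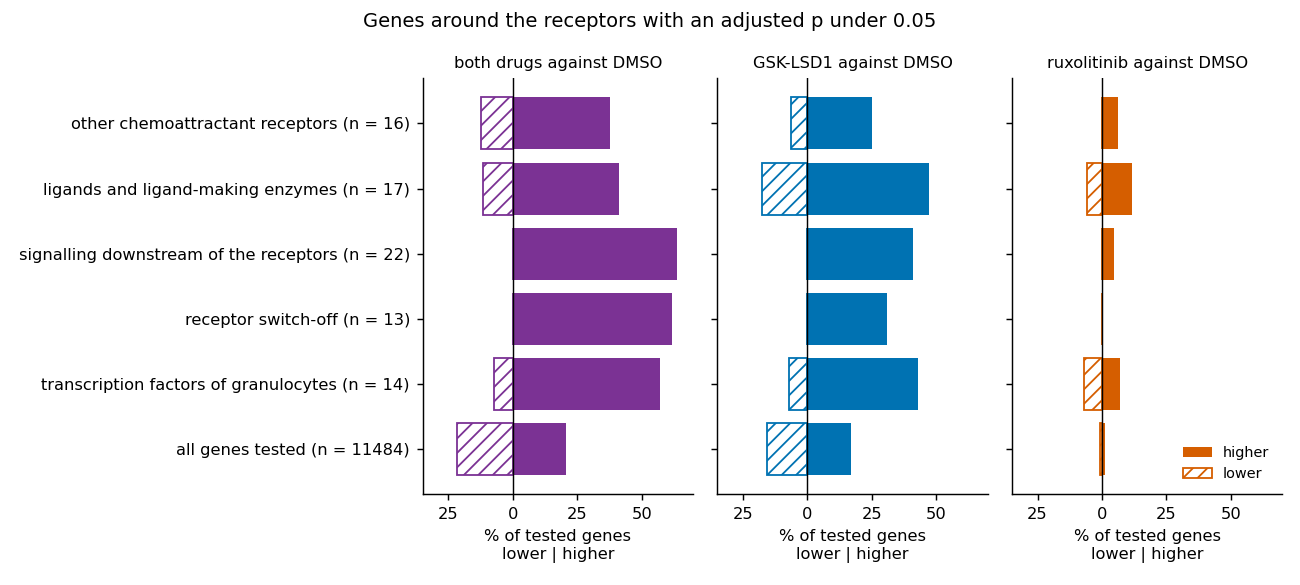
Share of tested genes that were higher (filled, right of 0) or lower (hatched, left of 0) than in DMSO at an adjusted p under 0.05 (horizontal axis, percent), for 5 lists of genes around the receptors and for all genes tested. In the signalling and switch-off lists 14 of 22 and 8 of 13 genes were higher after both drugs and 0 were lower, beside 20.5% and 21.8% of all genes.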

How the data were processed

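Gene expression was measured by RNA-seq of total RNA in 12 libraries, 3 for each of 4 treatments. What the authors deposited is a scaled signal for each gene symbol: every value is a whole multiple of one step per library, as the values themselves show, plus a constant of 1e-05. STAR, DESeq2, mm10 and GRCm38 are named, with no version, per the submitters' processing notes. How reads were counted, with which annotation and whether by strand, is not given in the sources used here. The constant was taken off, after which 100.0% of values lay within 0.01 of whole multiples of a step per library. Tests for counts were not run on these scaled values.

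With limma 3.58.1 (R 4.3.3), group means were fitted on log2(value + 1), with a variance trend and 8 residual degrees of freedom, over the 11484 genes with a mean of at least 10. Benjamini-Hochberg adjustment ran over these genes, with a threshold of 0.05. The procedure was tested on simulated data. Alternatives were a pseudocount of 0.25 or 5, a minimum mean of 50 or none, median-of-ratios scaling, quantile normalisation, removal of each library's trend on transcript GC content, the replicate number as a block, robust variances, only the compared groups, and libraries left out. The receptors and gene lists were chosen with earlier results of these data known. Up to 4 genes per list were named by the smallest F-test p, and the 3 genes with the highest Pearson r to each receptor; Cxcr1, Alox5 and the scarce ligands were named after their values were seen, and a gene that the rule names is not reported here. Positions and exon lengths are from GENCODE vM21 (GRCm38), by symbol. Intervals cover replicate spread as the model estimates it.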

Additional observations from a re-analysis of the deposited data

How the results depend on the processing

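Of 1141 recomputed values of the 7 receptors tested, 1096 kept their direction and their side of the threshold, 22 calls were lost, 12 were gained, and 11 values changed sign, of which 0 had passed the test. The sign changes were Fpr2 after ruxolitinib (-0.41 to 0.21 with 1 library left out; 0.21 without ruxolitinib replicate 3, 0.20 without DMSO replicate 1) and after GSK-LSD1 (-0.02 with quantile normalisation), Ccr1 after both drugs against DMSO (0.03 with quantile normalisation, 0.05 with the GC correction, with or without the replicate block, -0.04 to 0.01 with 1 or both of the doubted libraries or any 1 library left out) and against GSK-LSD1 (0.02 with the GC correction, with or without the block), and Ptafr after ruxolitinib (-0.69 to 0.26 with 1 library left out; 0.26 without ruxolitinib replicate 2, alone or with replicate 3 of both drugs).

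Receptors called for ruxolitinib against DMSO numbered 0 in the main test, 1 with the GC correction, 1 with the replicate block and GC correction, 1 without ruxolitinib replicate 2 and replicate 3 of both drugs, and 0 to 2 with any 1 library left out. For both drugs against DMSO and against ruxolitinib they numbered 3 each, and by the F-test 4, at a mean of at least 50, where only 4 receptors were tested. For both drugs against GSK-LSD1 they numbered 1 to 2 with 1 library left out. Genes called for ruxolitinib numbered 187 in the main test, 98 with no filter, 307 with the GC correction (132 higher, 175 lower), 112 with the replicate block, 317 without the pair of libraries, 82 with only the compared groups, and 32 to 551 with 1 library left out. For both drugs against GSK-LSD1 161 were called, 284 with the GC correction, 270 without the pair and 83 to 226 with 1 left out. The interaction called 1 gene, 0 with no filter, with quantile normalisation or with the replicate block, 3 with the GC correction or without the pair, 5 with the block and GC correction, and 0 to 2 with 1 left out. The causes were not tested. With the GC correction 35.2% of calls for GSK-LSD1, 35.8% for both drugs against DMSO and 35.3% against ruxolitinib were upwards. In the main test these were 52.3%, 48.5% and 50.5%. For both drugs against GSK-LSD1 58.1% were upwards, against 75.2% in the main test. For ruxolitinib against DMSO 43.0% were upwards, against 61.5% in the main test. Main log2 changes against DMSO correlated with transcript GC content at a Spearman coefficient of 0.415 for ruxolitinib, 0.11 for GSK-LSD1 and 0.205 for both drugs. The main model did not pair same-numbered libraries, whose deviations correlated at -0.15 to 0.15, 1 of 18 pairs above 0.1. The labels do not say whether they were paired, and such correlations cannot settle it. The replicate block alone changed no receptor's call. Counts under about 20 leave Ptafr, Fpr2, Fpr1 and C3ar1 with wide errors.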
